A study of Mus musculus with 6 samples.

Results

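Cish and Bcl6 are a pair of growth hormone responsive genes that were picked out here because their levels varied widely, and in opposite directions, between kidney cortex arrays. They are described with the growth hormone receptor pathway to which they belong. The set holds 9 genes chosen by symbol, namely Cish, Bcl6, Socs2, Igf1, Ghr, Stat5a, Stat5b, Prlr and Jak2. Of these, 8 had a probe that carried their symbol alone, and 7 had a probe bright enough to enter the fit, among 9718 such genes in all. Prlr had no probe named here and was not analysed. The array measured 16 probes of the set, and 12 of them entered the fit, of which those of Cish and Bcl6, chosen for their values, are described with no test. Entry, meant below by tested probes or genes, required a signal above the negative controls, with a detection p-value below 0.05, on 3 or more of the 6 arrays, whichever the group.

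RNA came from the kidney cortex of male C57BL6 mice, 1 mouse per Illumina MouseWG-6 v2 bead array. The captopril group of 3 mice received this inhibitor of angiotensin converting enzyme through their drinking water, 10 mg/kg/day over 7 days, starting when they were 11 weeks old. The control group of 3 mice did not receive it, and the labels give an age of 12 weeks for all 6. Cortex is a mixture of tubule, glomerular, vascular and immune cells, so fewer cells of a type and less RNA per cell cannot be told apart in these values. The hour of tissue collection, feeding state and hormone levels were not given in the sources consulted here. The tissue label was checked against 10 markers of the proximal tubule, and all 10 were detected on all 6 arrays. Detected probes numbered 16372 to 17312 per array, and arrays correlated with each other across tested probes, which are not independent replicates, at 0.984 to 0.987.

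Growth hormone binds its receptor GHR, which activates the kinase JAK2, and JAK2 phosphorylates the transcription factors STAT5A and STAT5B. Activated STAT5 enters the nucleus and binds DNA sites with the core TTCNNNGAA. Cish, Socs2 and Igf1 are induced by STAT5 in mouse tissues, while Bcl6, which encodes a transcriptional repressor with a similar binding site, is repressed by growth hormone in mouse liver. CIS and SOCS2 feed back on the receptor as inhibitors. The prolactin receptor uses the same kinase and the same STAT proteins, as do several cytokine receptors. In male rodents growth hormone is secreted in pulses.

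Promoter windows, from 250 bases before to 50 bases after a RefSeq transcript start (GRCm38.p6), were read for 8 of the 9 genes, 14 windows in all. The windows of Cish and Bcl6 are printed because these genes carry the variation described below. Capitals mark each match to TTCNNNGAA, a palindromic pattern that reads the same on both strands, and each sequence runs 5′ to 3′ on the gene's own strand. The first is from chr9:107296409-107296708 (plus strand), the second from chr16:23988803-23989102 (minus strand) and the third from chr16:23981234-23981533 (minus strand).
Cish: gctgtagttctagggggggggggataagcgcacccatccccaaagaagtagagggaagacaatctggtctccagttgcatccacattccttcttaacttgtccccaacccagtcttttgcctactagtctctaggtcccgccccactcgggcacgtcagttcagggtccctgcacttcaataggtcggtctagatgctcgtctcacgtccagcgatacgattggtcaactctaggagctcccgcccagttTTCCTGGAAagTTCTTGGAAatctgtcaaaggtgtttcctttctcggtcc
Bcl6, upstream start: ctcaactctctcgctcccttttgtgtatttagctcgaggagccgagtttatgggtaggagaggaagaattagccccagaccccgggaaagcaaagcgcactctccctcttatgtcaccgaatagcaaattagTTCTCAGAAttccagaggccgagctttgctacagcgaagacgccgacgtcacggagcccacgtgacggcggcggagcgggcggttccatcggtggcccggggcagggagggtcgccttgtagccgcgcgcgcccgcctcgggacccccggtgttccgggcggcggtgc
Bcl6, downstream start: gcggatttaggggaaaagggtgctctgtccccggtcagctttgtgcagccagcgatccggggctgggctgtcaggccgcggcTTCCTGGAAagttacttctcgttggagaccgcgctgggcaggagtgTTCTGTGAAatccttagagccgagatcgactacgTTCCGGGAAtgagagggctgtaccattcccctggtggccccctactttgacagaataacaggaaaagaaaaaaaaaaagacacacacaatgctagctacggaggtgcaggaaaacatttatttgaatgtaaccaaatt
The Cish window held 2 matches, TTCCTGGAA and TTCTTGGAA, separated by 2 bases and starting at bases 251 and 262 of the window. The upstream Bcl6 window held 1 match, TTCTCAGAA, at base 133. In the downstream Bcl6 window there were 3, TTCCTGGAA at base 83, TTCTGTGAA at base 129 and TTCCGGGAA at base 163. Among all 32851 promoter windows of this length, 8.30% held at least 1 match and 0.457% held 2 or more. Of the other member windows, 1 of the Prlr windows held a match and those of Igf1, Ghr, Stat5a, Stat5b and Jak2 held 0. No match was sought outside these windows, and a match describes letters only.

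Cish, which encodes the cytokine-inducible SH2 protein CIS, a feedback inhibitor of STAT5 signalling, had deposited intensities (not normalized between arrays) of 1026, 2291 and 686 in control mice 1 to 3. In captopril mice 1 to 3 they were 748, 992 and 505. After background correction and normalization (the neqc log2 scale, used below for every level), the control levels were 9.77, 11.31 and 9.25, and the captopril levels were 8.95, 10.07 and 8.56. Control mouse 2 was the highest and captopril mouse 3 the lowest, and the groups overlapped. The highest level was 6.72-fold above the lowest, a range of 2.75 log2 units. The SD over the 6 arrays was 0.98, rank 14 from the widest among 16500 tested probes and rank 3 among 1622 probes whose mean lay within 0.5 log2 units. The median SD of those probes of like level was 0.14.

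Bcl6 encodes the zinc finger repressor BCL6, known from germinal centre B cells and, in mouse liver, as a gene that growth hormone holds down. Its deposited intensities were 1124, 543 and 1782 in control mice 1 to 3 and 3342, 322 and 1977 in captopril mice 1 to 3. On the log2 scale the control levels were 9.91, 9.03 and 10.77, and the captopril levels were 11.33, 8.07 and 10.81. Captopril mouse 1 was the highest and captopril mouse 2 the lowest, so the captopril mice alone spanned the whole range. The highest level was 9.57-fold above the lowest, a range of 3.26 log2 units. Its SD of 1.24 held rank 7 among all tested probes and rank 1 among 1444 of like level, where the median SD was 0.13. Wide variation chose both genes, so these ranks are a description and carry no test. Over all tested probes, 12 (0.0727%) had an SD over 1, Bcl6 among them, and Cish lay just under that value.

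**Figure D1:**
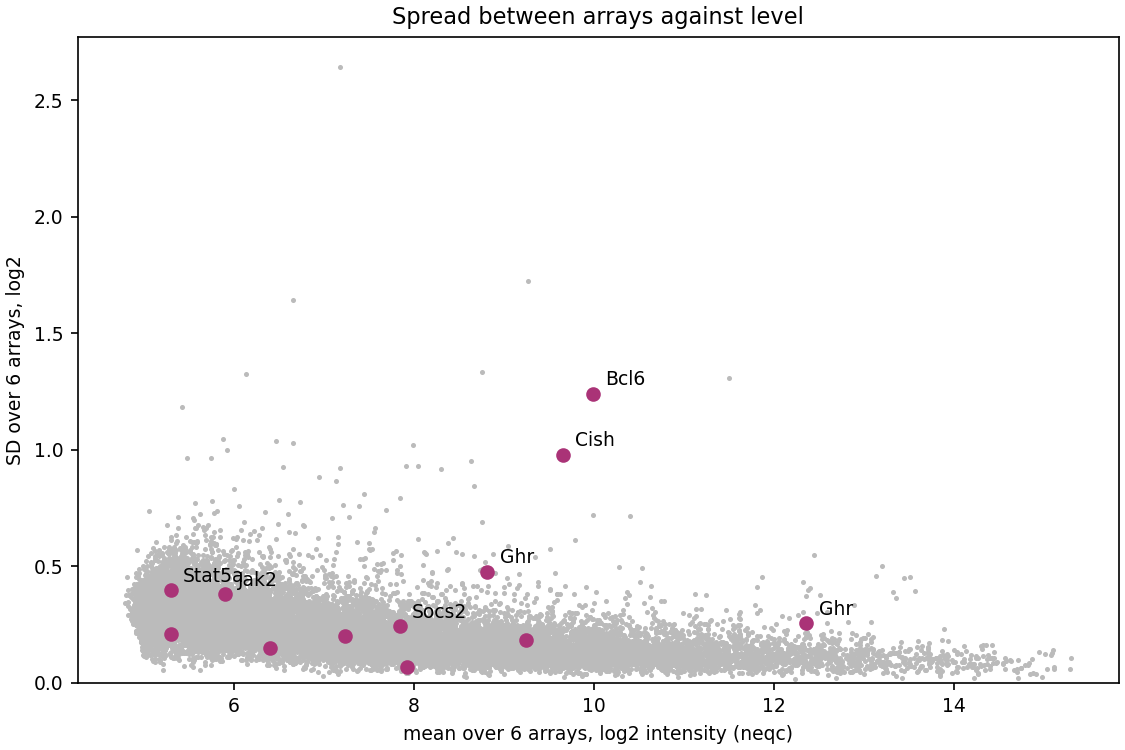
SD over the 6 arrays (log2 units) against mean level over the 6 arrays (neqc log2 intensity), with each tested probe in grey and the 12 probes of the set that entered the fit in purple. Bcl6 (SD 1.24) and Cish (SD 0.98) stand above the cloud, whereas the other 10 probes of the set had SDs of 0.07 to 0.48.

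The levels of Cish and Bcl6 ran against each other. Control mouse 2 and captopril mouse 2 had the highest Cish levels (11.31 and 10.07) and the lowest Bcl6 levels (9.03 and 8.07). Captopril mice 1 and 3 and control mouse 3 had the lowest Cish levels (8.95, 8.56 and 9.25) and the highest Bcl6 levels (11.33, 10.81 and 10.77). The arrays of control mouse 2 and captopril mouse 2 also had the lowest median intensities before normalization (111 and 118.6, against 129.2 to 147.4 for the others). They had the fewest detected probes as well (16554 and 16372). The part of array brightness in the pattern was not tested. Over the 6 arrays Pearson's r was -0.753 and Spearman's rho -0.886, a pattern for which the pair was chosen and which therefore has no p. Without control mouse 2 and captopril mouse 3, the arrays farthest from the Cish median, r was -0.95 over 4 arrays. In the control mice the order of Bcl6 was the exact reverse of that of Cish, and among captopril mice the mouse with the highest Cish had the lowest Bcl6. Such an order was not particular to Bcl6, since Ghr probes ILMN_1253504 and ILMN_1247348 ran in the exact reverse order of Cish in both groups. Few orders of 3 mice are possible, and the share of all tested probes with such an order was not counted. Taken as deviations from the group means, the levels had an r of -0.836 and a rho of -0.6. Each gene is represented by 1 probe, so no second probe of either gene measured the same variation.

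**Figure D2:**
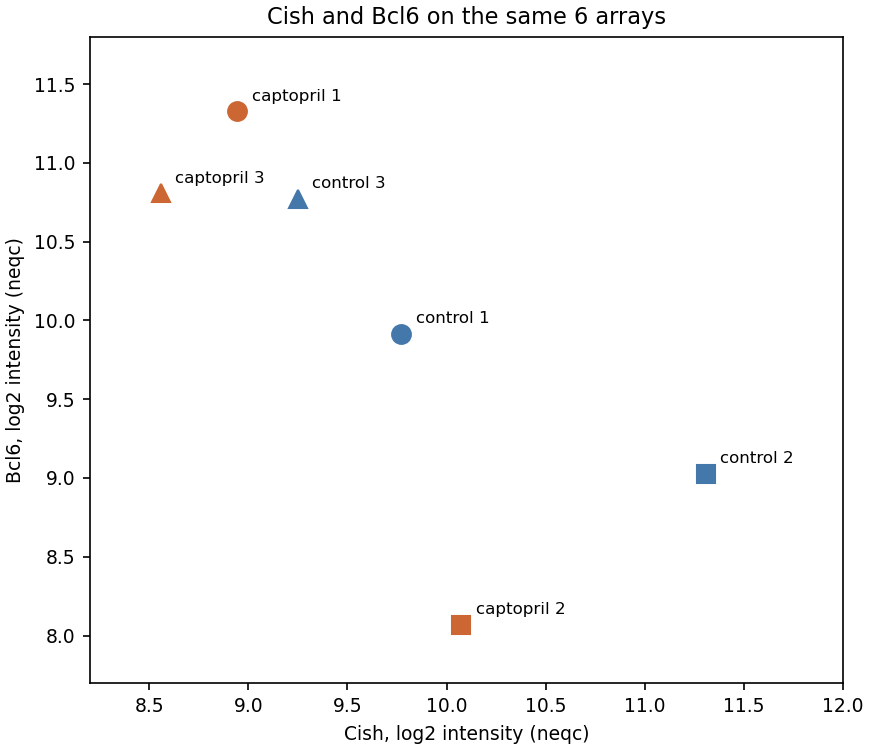
Bcl6 level against Cish level (both neqc log2 intensity), with 1 point for each mouse, blue for control and orange for captopril. The mouse with the highest Cish (control 2, 11.31) and the next (captopril 2, 10.07) hold the lowest Bcl6 levels, and both groups run from upper left to lower right.

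Against this spread between mice, taken as unpaired, the difference between the treatment groups was small or imprecise for both genes. The Cish level of each captopril mouse lay below that of the control mouse of its number. For Bcl6, captopril mice 1 and 3 lay above the control mouse of their number and captopril mouse 2 below. The labels give no pairing, and none was tested for these genes. Cish averaged 10.11 ± 1.07 in the controls and 9.19 ± 0.79 after captopril (SD, n = 3 per group), a difference of -0.92 on the log2 scale (SE 0.55, 95% interval -2.18 to 0.34). Without control mouse 2 that difference was -0.32, and without captopril mouse 2 it was -1.36. Bcl6 averaged 9.90 ± 0.87 in control and 10.07 ± 1.75 in captopril cortex, a difference of 0.16 (SE 0.80, 95% interval -1.67 to 2.00). Its sign rested on single mice, since the difference was 1.16 without captopril mouse 2, -0.47 without captopril mouse 1, -0.28 without control mouse 2 and -0.21 without captopril mouse 3.

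The receptor gene Ghr was measured by 3 probes that did not behave alike. Probe ILMN_1253504, the brightest, had levels of 12.17, 11.97 and 12.35 in control mice 1 to 3 and 12.54, 12.47 and 12.66 in captopril mice 1 to 3. Every captopril mouse lay above every control mouse. The means were 12.16 ± 0.19 and 12.56 ± 0.10 (SD, n = 3), so they differed by 0.40 on the log2 scale (SE 0.14, 95% interval 0.07 to 0.73), which was not past the threshold of 0.05 (limma adjusted p = 0.995, unadjusted p = 0.0241). The size was 0.40 in the authors' values too. Probe ILMN_1247348, whose annotated record is not among the RefSeq transcripts of Ghr, had levels of 9.20, 9.002 and 9.41 in control and 9.29, 9.11 and 9.49 in captopril mice, which overlapped, with a difference of 0.09 (SE 0.16). Probe ILMN_3138922, annotated to another RefSeq transcript of Ghr than the brightest probe, had levels of 9.31, 8.93 and 8.24 in control and 9.40, 8.40 and 8.62 in captopril mice. It varied more within each group than between them, with a difference of -0.02 (SE 0.33) and an SD over the 6 arrays of 0.48, rank 19 of 2021 probes of like level.

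Jak2, the receptor's kinase, was among the steadiest genes measured at its brighter probe. ILMN_1245579 had levels of 7.84, 7.98 and 7.94 in control and 7.97, 7.83 and 7.95 in captopril mice, an SD of 0.07 over 6 arrays that all but 2.61% of tested probes exceeded. The groups overlapped, with a log2 difference of -0.003 (SE 0.12, 95% interval -0.29 to 0.28, adjusted p = 0.999 in limma). Probe ILMN_3115162, annotated to another transcript of the gene, ranged from 5.42 to 6.46 and differed by -0.02 (SE 0.27). The other 2 Jak2 probes were detected on 1 array and on 0 arrays and were not tested.

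Of the transcription factors, Stat5a was measured by 2 tested probes. ILMN_2976191, the brighter, had levels of 7.02, 6.98 and 7.52 in control and 7.32, 7.24 and 7.30 in captopril mice, which overlapped (log2 difference 0.11, SE 0.17, adjusted p = 0.995 in limma). ILMN_2976188 had levels of 5.15, 4.79 and 5.04 in control and 5.79, 5.75 and 5.26 in captopril mice, with every captopril mouse above every control mouse. This dim probe was detected on 1 control array and on all 3 captopril arrays, so it met the detection filter through the group where it was higher. Its log2 difference of 0.60 (SE 0.18) was not past the threshold (limma adjusted p = 0.995). The difference was 0.18 when no background was corrected, and the authors' values gave 0.08. The probe of Stat5b was detected on 0 of the 6 arrays, so that gene has no level here.

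Socs2, a feedback inhibitor of the growth hormone receptor and, like Cish, a STAT5 target, did not share the wide spread of Cish. Probe ILMN_2628178 had levels of 7.46, 7.93 and 7.68 in control and 8.12, 8.04 and 7.82 in captopril mice. Captopril mouse 1, which was second lowest for Cish, was the highest for Socs2, and the groups overlapped. The log2 difference was 0.30 (SE 0.16, 95% interval -0.07 to 0.67), also not past the threshold (limma adjusted p = 0.995). Its other probe was detected on 1 array and was not tested.

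Igf1, which encodes insulin-like growth factor 1, had levels of 6.35, 6.34 and 6.51 in control and 6.15, 6.55 and 6.48 in captopril mice at probe ILMN_1225565. The groups overlapped, and the log2 difference was -0.01 (SE 0.15, 95% interval -0.35 to 0.34, adjusted p = 0.999 in limma). The dimmer probe ILMN_2769884 ranged from 5.06 to 5.62 and differed by -0.11 (SE 0.17). Its SD of 0.15 placed ILMN_1225565 at rank 2544 of 2824 probes of like level, among the steadier ones.

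**Figure D3:**
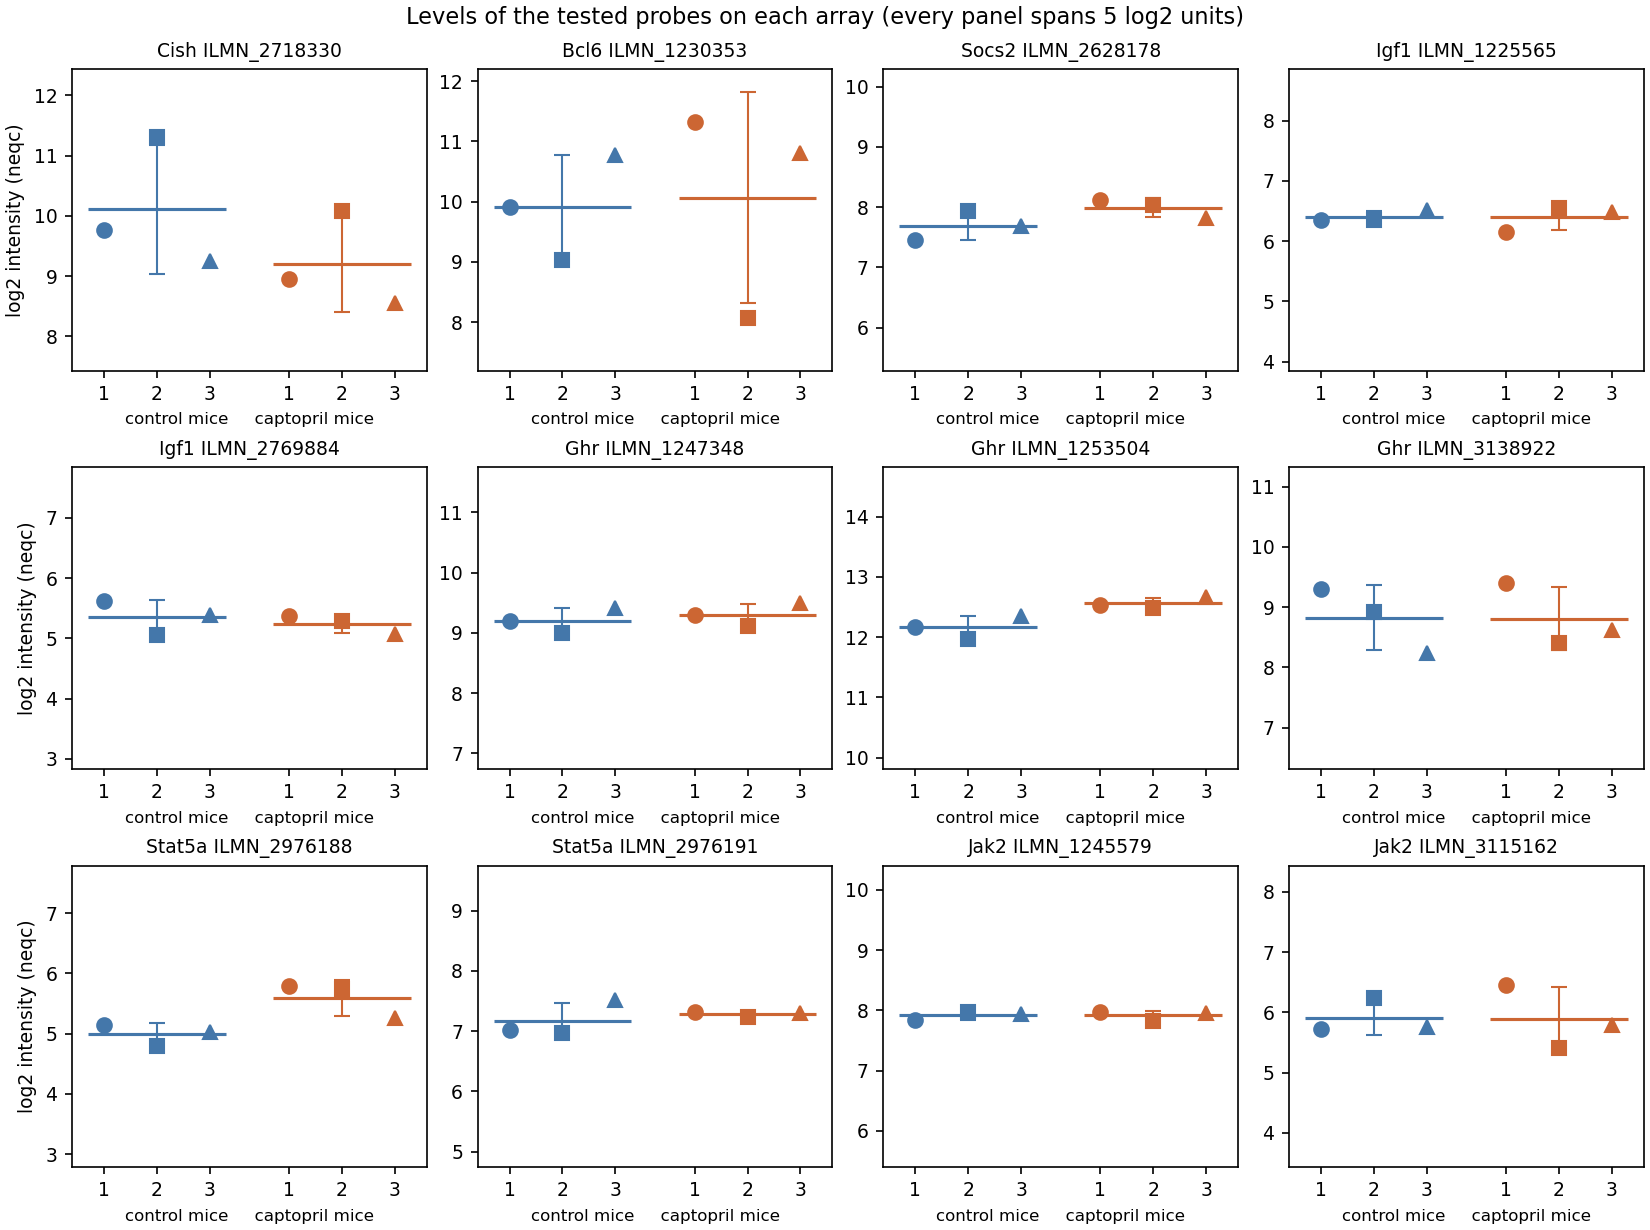
Levels (neqc log2 intensity) of the 12 probes that entered the fit in control mice (blue) and captopril mice (orange), numbered 1 to 3, with the group mean as a line and the SD as a bar. Every panel spans the same number of log2 units, so the range of 2.75 for Cish and 3.26 for Bcl6 can be set against 0.15 for Jak2 ILMN_1245579.

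Among the 10 probes of the 5 genes other than Cish and Bcl6, 0 passed the threshold between captopril and control, where 0.0182% of all tested probes did (3 of 16500, all lower in captopril cortex). Of the 8 detected on all 6 arrays, Ghr ILMN_1253504 alone had an unadjusted p under 0.05 in limma. It alone had groups that did not overlap in either direction, with captopril above control. Among all probes detected on all 6 arrays 3.09% had such a p and 3.9% had captopril wholly above control. Over all tested probes these shares were 4.28% and 4.06%, and a further 4.63% had captopril wholly below control. Stat5a ILMN_2976188 is not counted, since its detection differed between the groups. Ghr and Stat5a had other probes with overlapping groups and differences of -0.02 to 0.11. In the authors' processed values the differences were 0.13 for Socs2 and 0.03 for Stat5a ILMN_2976191.

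**Figure D4:**
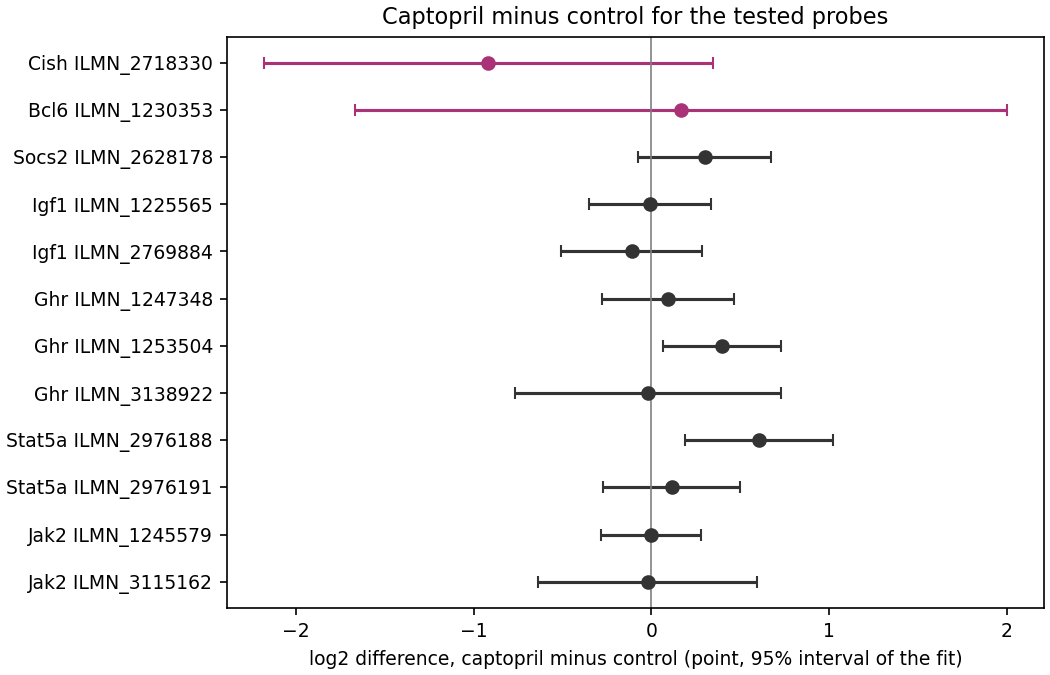
Captopril minus control differences (log2) of the 12 probes that entered the fit, with points for the estimate and bars for the 95% interval from the fit. The intervals of Cish and Bcl6, in purple, are the widest (-2.18 to 0.34 and -1.67 to 2.00), and those of Ghr ILMN_1253504 and Stat5a ILMN_2976188 lie above 0.

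The levels of the other members were then set against Cish over the 6 arrays, with exact permutation tests over all orders of the arrays and adjustment over all 16499 other tested probes. The tests pooled the control and captopril mice, so relations between mice of the same group were not tested. Between the groups Cish differed by -0.92 and Socs2 by 0.30, in opposite directions, which enters their pooled r. Over the pooled arrays Socs2 had no detectable relation to Cish (r = 0.064, rho = 0.029, exact p = 0.901 and 1, adjusted p = 0.995 and 1), nor had Igf1 ILMN_1225565 (r = 0.005, rho = 0.086, exact p = 0.994 and 0.919, adjusted p = 1 for both). Without control mouse 2 and captopril mouse 3 their r was -0.227 and 0.672 over 4 arrays. Ghr had a negative r at 2 of its 3 probes, neither past the adjustment, and the first of them is the probe whose record is not a RefSeq transcript of the gene. ILMN_1247348 had r = -0.926 and rho = -0.943 (exact p = 0.00694 and 0.0167, adjusted p = 0.69 and 0.838), and r = -0.804 without those arrays. ILMN_1253504 had r = -0.859 and rho = -0.829 (exact p = 0.0319 and 0.0583, adjusted p = 0.759 and 0.893), and r = -0.336 without those arrays. Within each group the order of both probes was the exact reverse of that of Cish, which was neither tested nor counted over all tested probes. The third probe, ILMN_3138922, had r = 0.042 and rho = -0.086 (exact p = 0.949 and 0.919, adjusted p = 0.999 and 1), and r = -0.311 without those arrays.

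Stat5a ILMN_2976191 had r = -0.708 and rho = -0.714 with Cish (exact p = 0.108 and 0.136, adjusted p = 0.829 and 0.949), and r = -0.568 without those 2 arrays. Jak2 ILMN_1245579 had r = -0.095 and rho = -0.086 (exact p = 0.883 and 0.919, adjusted p = 0.993 and 1). Its r of -0.985 without those arrays covers 4 arrays and a gene that varied by 0.15 log2 units. In all, 2 of the 10 member probes other than Bcl6 had an unadjusted exact p under 0.05 for r, both of Ghr and both negative, against 6.28% of all tested probes. After adjustment 0 member probes and 0 probes of the whole table passed, with a smallest adjusted p of 0.667 by exact permutation. Against Bcl6 0 of the 10 member probes had such a p, where 4.42% of tested probes did. Single tests of 6 arrays cannot give an exact p below 0.00139.

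**Figure D5:**
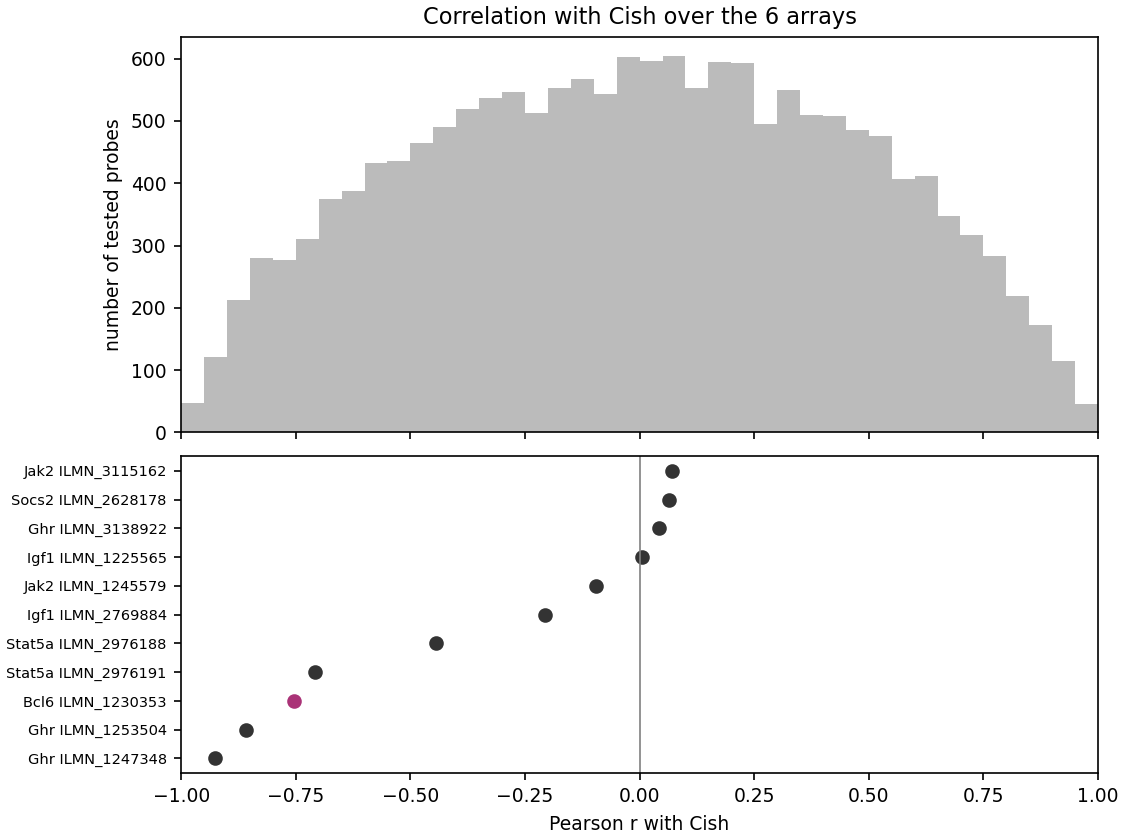
Upper panel, number of tested probes by their Pearson r with Cish over the 6 arrays. Lower panel, r of each member probe, with Bcl6 in purple (r = -0.753), where Ghr ILMN_1247348 (-0.926) and ILMN_1253504 (-0.859) lie farthest to the left and Socs2 and Igf1 lie near 0.

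Among 272 genes detected on all 6 arrays with an SD of at least 0.4, those most like Cish in pattern were Grk6, a G protein-coupled receptor kinase gene (r = 0.940), Tor2a (r = 0.923), 4930524J08Rik (r = 0.921), Rptn (r = 0.899) and Git2 (r = 0.884). Most opposed were Xpo5, which encodes an exporter of microRNA precursors (r = -0.986), Paip1 (r = -0.983), 3110040M04Rik (r = -0.929), Capza1 (r = -0.883) and Tk2 (r = -0.879). For Bcl6 the most like were Wdr5 (r = 0.988), Gon4l (r = 0.967), Ntmt1 (r = 0.941), Rassf3 (r = 0.932) and Scd1, which encodes a fatty acid desaturase (r = 0.923). Most opposed to Bcl6 were Trps1 (r = -0.924), Rptn (r = -0.879), Col6a2 (r = -0.861), Inip (r = -0.833) and Tor2a (r = -0.796). Rptn and Tor2a were thus named on both counts, with Cish and against Bcl6. These 20 places were filled by the size of r over 6 arrays and are a description with no test. Most of these genes were dimmer than Cish and Bcl6, such as Xpo5 (5.23 to 6.38), Paip1 (5.14 to 6.22) and Tor2a (5.17 to 6.42). Trps1 (9.05 to 10.17) and Scd1 (8.63 to 10.26) alone lay near their levels. Tested probes within 0.5 log2 units of 5.30 had a median SD of 0.31, against 0.14 near Cish, so dim probes met the SD cut more readily.

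The wider pathway was read from lists chosen with earlier results of these data known. Of 24 genes of growth hormone receptor signalling, 17 were tested and 0 passed in either direction in limma, while 2 had a raw p below 0.05. The median difference was 0.04 against -0.003 over all 9718 tested genes, where 359 (3.69%) had an unadjusted p under 0.05. After Ghr the smallest p values belonged to the transcription factor gene Stat4 (log2 difference -0.49, SE 0.18), the kinase gene Jak3 (-0.29, SE 0.13) and the adaptor gene Sh2b1 (-0.21, SE 0.14). Stat4 reached detection in all 3 control mice but in 1 captopril mouse, so it too met the filter through the group where it was higher. It stood at -0.06 and Jak3 at -0.07 in the authors' values, and the other Jak3 probe gave 0.28.

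In the list of 19 SOCS proteins and other inhibitors of cytokine signalling, 14 genes besides Cish were tested and 0 passed. A raw p below 0.05 was found for 1, Socs3, a feedback inhibitor of cytokine receptors that use gp130, with levels of 6.05, 6.06 and 5.55 in control and 5.46, 5.14 and 5.06 in captopril mice. Every captopril mouse lay below every control mouse (log2 difference -0.67, SE 0.18, adjusted p = 0.995 in limma), as in 4.63% of all tested probes, and the difference was -0.09 in the authors' values. The phosphatase gene Ptpn6 differed by 0.23 (SE 0.14), with 0.65 (SE 0.14) at its other probe. The list counts take the brightest probe of each gene, so that other probe is not counted. Socs4, named after its values were seen, differed by 0.22 (SE 0.15) and had a negative r with Cish (r = -0.9, rho = -0.886, exact p = 0.0167 and 0.0333, adjusted p = 0.739 and 0.844, r = -0.903 without the 2 arrays farthest from the Cish median). In the authors' values Ptpn6 stood at 0.15 and Socs4 at 0.05.

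Of 22 STAT5 target genes 13 were tested besides Cish and Bcl6, and 0 passed in limma, with 5 of the 13 above 0 and a median difference of -0.03. A raw p below 0.05 was found for 1, Socs3 again. Beside Socs3 and Socs2, the smallest p belonged to Gadd45g, a growth arrest gene, at -0.49 (SE 0.23), with -0.67 (SE 0.23) at its other, uncounted probe. Of these 13 targets 7 had a positive r with Cish and 6 a negative one, with a median of 0.005, and 1 had an unadjusted exact p under 0.05, where 6.28% of all tested probes did. This was Bcl2l1, which encodes the survival protein BCL-XL, with levels of 8.91, 9.39 and 9.01 in control and 8.67, 9.12 and 8.80 in captopril mice. Control mouse 2 and captopril mouse 2 were the highest, as for Cish (r = 0.913, rho = 0.886, exact p = 0.0125 and 0.0333, adjusted p = 0.716 and 0.844, r = 0.783 without the 2 farthest arrays). Bcl2l1 was named after its values were seen. Its other tested probes differed by -0.11 (SE 0.19) and -0.32 (SE 0.13) between the groups, beside -0.24 (SE 0.18) at this one. Their r with Cish is not given here.

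In the IGF axis 13 of 16 genes were tested, and 0 passed, with 0 at an unadjusted p under 0.05 in limma. Its smallest p values belonged to Igf2 (log2 difference 0.22, SE 0.19), Igfbp7 (0.15, SE 0.14), Igfals, which encodes the acid-labile subunit of the circulating IGF complex (0.17, SE 0.18), and the insulin receptor gene Insr (-0.11, SE 0.12). Of 11 genes of the BCL6 family and its corepressors 7 were tested besides Bcl6 and 0 passed, with 0 at an unadjusted p under 0.05. Its smallest p values belonged to the deacetylase gene Hdac3 (-0.17, SE 0.14), Bcorl1 (-0.26, SE 0.28), Bcl6b (0.29, SE 0.39) and Hdac4 (0.09, SE 0.18). In the authors' values the difference was 0.05 for Igf2, 0.09 for Igfals, -0.12 for Hdac3, -0.04 for Bcorl1, 0.04 for Bcl6b and 0.02 for Hdac4. Of 13 genes for growth hormone, prolactin, somatostatin, ghrelin and their receptors 0 were tested, since none with a named probe reached the detection filter.

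Markers of other cells were read beside Cish and Bcl6. Of 10 fat cell markers 5 were tested, and their summed level (neqc intensity on a linear scale) was 209, 250 and 361 in control mice 1 to 3 and 566, 227 and 477 in captopril mice 1 to 3. The 3 mice with the highest sum, captopril mice 1 and 3 and control mouse 3, were also the 3 with the highest Bcl6 and the lowest Cish. Plin1, Fabp4, Cidec and Retn did not reach the detection filter, and the brown fat genes Cidea and Ucp1 ranged from 4.54 to 7.71 and from 4.60 to 6.97 on the log2 scale. Of the 5, only Pck1 was detected on all 6 arrays (6.57 to 6.96), a gene that also stands in the list of fasting and feeding genes. Adipoq, Cidea, Ucp1 and Lep were not detected on every array. For T cells 2 of 9 markers were tested, 0 of them detected on all 6 arrays, with summed levels of 55.1 to 75.4 in control and 78.2 to 86.6 in captopril cortex, and Cd3e, Cd2, Cd8a, Cd4 and Cd28 did not reach the filter. Of 8 B cell markers 1 was tested, also not detected on every array (22.5 to 50.9 in control and 36.7 to 61.6 in captopril cortex), and Ms4a1, Pax5, Cd22 and Blk did not. The 7 tested of 10 macrophage and dendritic cell markers summed to 4080 to 4330 in control and 3980 to 5900 in captopril cortex, with Adgre1 and Fcgr1 below the filter. Sums near the detection limit, as those of the T and B cell markers are, set no order between the groups.

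Of 8 liver markers 3 were tested, and their sum was 4440, 3590 and 4330 in control and 5190, 4070 and 4780 in captopril mice, highest in captopril mice 1 and 3 and lowest in control mouse 2, the reverse of Cish. Nearly all of it was Ttr, the transthyretin gene (12.09, 11.77 and 12.04 in control and 12.32, 11.95 and 12.19 in captopril mice), while the defining genes Alb, Mup3, Cps1, Tat and Fgb did not reach the filter. The 4 tested of 6 podocyte markers summed to 3380, 3850 and 3820 in control and 3260, 3670 and 3050 in captopril mice, lowest in captopril mice 3 and 1, which had the lowest Cish. Control mouse 1, though, had a lower sum than control mouse 3 and a higher Cish level. All 8 endothelial markers were tested, with sums of 6560, 6410 and 6620 in control and 6370, 7420 and 5950 in captopril mice, highest in captopril mouse 2, which had the lowest Bcl6. Control mouse 2, with the next lowest Bcl6, had the lowest sum of the control mice. The 7 tested of 8 markers of the distal tubule and collecting duct summed to 33800, 35100 and 37300 in control and 37300, 35000 and 36500 in captopril mice, highest in the 3 mice with the highest Bcl6. Red cell markers (3 of 8 tested) summed to 8450 to 16700 in control and 10700 to 16300 in captopril cortex, and of 9 adrenal markers 0 were tested. The part of these cells in the Cish and Bcl6 levels was not tested.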

How the data were processed

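Kidney cortex RNA of 6 mice was measured on 6 arrays, grouped by the treatment in their titles. The deposited table gave a bead signal intensity for 45281 probes per array, neither background-subtracted nor normalized between arrays, per the file headers and values (medians 111 to 147.4). It also held a deposited detection p-value per probe, per the file headers. The authors' processed log2 values ranked probes as the intensity did, and shared quantiles across arrays; lumi is named, without a version, per the submitters' processing notes, and the transform was not stated in the sources used here. They served as an alternative.

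Intensities were corrected and quantile-normalized with neqc (offset 16) in limma 3.58.1 (R 4.3.3). Captopril was compared with control in limma (lmFit, eBayes) over 16500 probes, two-sided, with Benjamini-Hochberg adjustment and a threshold of 0.05. SE and 95% intervals come from that fit, checked on simulated data. The 3 arrays per group limit precision. The limma p-values weigh a difference in means against a variance estimate that borrows from all tested probes. The permutation p-values set a correlation against its values over all orders of the arrays. Exact permutation tests used numpy 2.4.6.

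Names came from GEO's platform annotation (34885 probes with 1 symbol). The brightest probe represents a gene. The members and lists were chosen with earlier results of these data known. Named are all members, the 5 genes most like and most opposed to Cish and to Bcl6 among genes with an SD of at least 0.4, and up to 4 genes per list with the smallest unadjusted p. Promoter sequences are from RefSeq. Alternatives were other background corrections, scaling, filters, variance models, array weights, a replicate block, probe averaging and each array left out.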

Additional observations from a re-analysis of the deposited data

How the results depend on the processing

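The count of 3 called probes stayed between 2 and 4 except for 5 with trend and robust options and 0 with the replicate number as a block, and it was 2 with any 1 array left out. Deviations of same-numbered mice correlated at 0.00447, 0.00993 and 0.0424 across tested probes, which showed no pairing by replicate number there. Median intensities, though, fell in the same order of replicate number in both groups. They were 142.4, 111 and 129.2 in control mice 1 to 3 and 147.4, 118.6 and 137.6 in captopril mice 1 to 3. Cish levels also fell in the same order of replicate number in both groups, with mouse 2 highest, then mouse 1, then mouse 3. Bcl6 was lowest in mouse 2 of both groups. Whether these orders came from shared handling or collection was not tested. The labels do not say whether arrays were handled in pairs, so the block is given only here. Apart from Cish and Bcl6, which were given no test, 0 of the 10 member probes were called under any alternative in which they passed the filter, with adjusted p between 0.639 (Stat5a ILMN_2976188) and 1 in limma. Differences near 0 changed sign. Igf1 stood at 0.076 with median scaling, 0.0001 in the authors' values, 0.05 without control mouse 3 and 0.12 without captopril mouse 1, and ran from -0.085 to 0.12 with an array left out. Jak2 stood at 0.087 with median scaling, 0.03 without control mouse 2, 0.01 without control mouse 3 and 0.043 without captopril mouse 2, and ran from -0.043 to 0.043 with an array left out. Of the other probes, Ghr ILMN_3138922 stood at 0.066 with median scaling and 0.035 with array weights, and Jak2 ILMN_3115162 at 0.0026 without background correction, 0.086 with median scaling and 0.0028 in the authors' values. With an array left out they ran from -0.31 to 0.22 and from -0.31 to 0.21, Ghr ILMN_1247348 from -0.0079 to 0.20 and Igf1 ILMN_2769884 from -0.26 to 0.019. Stat5a ILMN_2976188 ran from 0.08 to 0.77 over all its alternatives. The cause was not tested. The brightest probes of Socs2, Ghr and Stat5a, or the mean of their probes, kept their sign under all 16 alternatives (0.13 to 0.42, 0.16 to 0.49 and 0.01 to 0.36), and the Cish difference ran from -1.36 to -0.32. Bcl6 stood at -0.03 with array weights. The r of Cish with Bcl6 ran from -0.836 to -0.673 over processing alternatives and from -0.928 to -0.713 with an array left out. The SD over arrays was 0.78 to 0.92 for Cish and 0.94 to 1.37 for Bcl6 under other processing. The dim probes of Stat5b, Socs2 and Jak2 lay too near background for a level.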

Other observations

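Glucocorticoid and feeding genes, which also respond to the state of an animal at tissue collection, were read beside Cish and Bcl6. Of 15 glucocorticoid response genes 14 were tested and 0 passed in limma, while 1 had a raw p below 0.05, the kinase gene Sgk1, where 3.69% of all tested genes had such a p. Sgk1 had levels of 11.13, 11.14 and 11.23 in control and 11.52, 11.40 and 11.42 in captopril mice (log2 difference 0.28, SE 0.12, adjusted p = 0.995 in limma), with every captopril mouse above every control mouse, as in 4.06% of all tested probes. The cochaperone gene Fkbp5 differed by 0.45 (SE 0.22), Tsc22d3, which encodes GILZ, by 0.19 (SE 0.17), and Sult1a1 by 0.15 (SE 0.16). The probes of Tsc22d3 disagreed in sign.

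Of 18 fasting and feeding genes 12 were tested and 0 passed in limma, and 0 had a raw p below 0.05. Ddit4, which encodes the mTOR inhibitor REDD1, had levels of 7.45, 7.24 and 7.82 in control and 8.05, 7.51 and 8.02 in captopril mice. It was the 1 gene of the list with an unadjusted exact p under 0.05 against Cish, where 6.28% of all tested probes had one. Control mouse 2 was the lowest, and captopril mice 1 and 3 were the highest, the reverse of Cish (r = -0.935, rho = -0.886, exact p = 0.00556 and 0.0333, adjusted p = 0.689 and 0.844, r = -0.943 without the 2 arrays farthest from the Cish median). The smallest p values of its list were those of Ddit4 (0.35, SE 0.21), the lipogenic factor gene Srebf1 (-0.27, SE 0.16), Trib3 (-0.34, SE 0.25) and Angptl4 (0.19, SE 0.15). In the authors' values Ddit4 stood at 0.15, Srebf1 at -0.06 and Trib3 at -0.04, beside 0.27 for Fkbp5 and 0.08 for Sult1a1.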
